A study of Mus musculus with 2 samples.

Results

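The interleukin-1 family and its receptors were followed in the mouse dura mater, the outer layer of the meninges, as 10 genes taken by symbol from the 33696 genes of the deposited matrices: the ligands Il1a, Il1b, Il18 and Il33, the antagonist Il1rn, and the receptors Il1r1, Il1r2, Il1rap, Il1rl1 and Il18r1. All 10 were present in the matrices under those symbols. Dural cells of female mice were compared between 1 library of dura taken 14 days after the jugular veins had been tied off (JVL-14) and 1 library from mice that had undergone sham surgery. Strain, age, the number of mice and the time between sham surgery and sampling are not given in the sources used here. Cells from 2 meninges were combined per well after enzymatic digestion at 37°C, sorted as viable singlets and loaded at 20000 cells per library for 3′ sequencing on droplets, per the labels' protocols.

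Proteins of this family are alarm signals. Il1b and Il18 are made as inactive precursors that caspase-1 cuts within inflammasomes, whereas Il1a and Il33 can act when a damaged cell releases them. Interleukin-1 alpha and beta signal through Il1r1 paired with the shared chain Il1rap, and NF-kB is switched on in the responding cell. Il1rn occupies Il1r1 without signalling, and Il1r2 is a decoy receptor that binds interleukin-1 and has no signalling domain. Il33 acts through Il1rl1 (ST2), also paired with Il1rap, and is known for its action on mast cells and group 2 innate lymphoid cells. Il18 acts through Il18r1, chiefly on T cells and natural killer cells.

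The JVL-14 library held 3004 barcodes and 18796260 unique molecular identifiers (UMIs, counts of captured RNA molecules), of which 2471 cells were retained, and the sham library held 5495 barcodes and 33996641 UMIs, of which 4672 cells were retained. The libraries shared 2 barcodes. Clustering gave 35 clusters, and 17 classes or unnamed clusters had at least 20 cells in each library. A level is given as CPM, the UMIs of a gene per 1e6 UMIs of the class. With 1 library per group no test was possible, and every interval is a 95% interval for counting error only. It leaves out differences between mice, between preparations and between the cells of a class. Each UMI is treated as independent, so an interval is too narrow where a few cells hold most UMIs of a gene. All markers fixed for neutrophils, macrophages, monocytes, fibroblasts, mast cells, T cells and group 2 innate lymphoid cells were detected in both libraries in the class of that name. Skeletal muscle cells (3 in JVL-14 and 249 in sham), choroid plexus cells (0 in JVL-14 and 80 in sham) and pinealocytes (0 in JVL-14 and 52 in sham) came almost wholly from the sham preparation and were not compared. Cells labelled monocytes (cluster 3) were led by Cd209a, a dendritic-type gene. Clusters 19 (led by Chad, Cilp2 and Comp) and 10 (led by Gsta4, Mdk and Ecrg4) carried connective-tissue genes and were left unnamed.

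RefSeq's gene table for GRCm38.p6 places Il1a and Il1b next to each other on chromosome 2 among protein-coding genes, and Il1r2, Il1r1, Il1rl1 and Il18r1 in a row on chromosome 1 interrupted by Il1rl2. Because Il1a and Il1b are neighbours that were both detected mainly in myeloid cells, and Il1r2 was detected mainly in neutrophils with Il1b, the 250 bases upstream of the annotated start of these genes are shown from the RefSeq promoter table (GRCm38.p6, which is not the build of the counts, and in which all 10 genes matched). Capitals mark matches on either strand to TATAAA (the TATA box core), TGANTCA (AP-1 type), GAGGAA (PU.1 type core) or TTNNGNAA (C/EBP type). Each sequence is written 5′ to 3′ on the strand of its gene: Il1a at chr2:129309973-129310222 on the minus strand, Il1b at chr2:129371140-129371389 on the minus strand and Il1r2 at chr1:40085843-40086092 on the plus strand.
Il1a: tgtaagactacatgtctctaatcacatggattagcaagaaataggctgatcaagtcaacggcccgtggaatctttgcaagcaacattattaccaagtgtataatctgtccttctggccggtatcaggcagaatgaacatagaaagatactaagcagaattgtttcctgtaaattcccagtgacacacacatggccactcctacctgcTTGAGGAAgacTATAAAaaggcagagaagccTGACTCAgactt
Il1b: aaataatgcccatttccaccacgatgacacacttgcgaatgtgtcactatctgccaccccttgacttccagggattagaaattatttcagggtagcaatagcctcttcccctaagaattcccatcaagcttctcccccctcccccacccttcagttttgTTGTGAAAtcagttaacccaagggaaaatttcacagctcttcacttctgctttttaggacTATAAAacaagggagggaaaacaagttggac
Il1r2: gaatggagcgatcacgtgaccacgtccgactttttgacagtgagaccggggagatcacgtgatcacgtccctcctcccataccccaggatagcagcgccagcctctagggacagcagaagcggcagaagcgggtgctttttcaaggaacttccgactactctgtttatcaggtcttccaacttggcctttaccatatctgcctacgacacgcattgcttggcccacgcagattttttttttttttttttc
TATAAA began a short way upstream of both neighbouring ligands, with 26 bases between its end and the start of Il1a and 25 bases in Il1b, and 12.4% of the 32851 promoters in the table hold it in this window. The Il1a window also held TGANTCA (6.75% of promoters), 5 bases before the start, and a GAGGAA (23.3%) that lies inside a TTNNGNAA (36.8%). The Il1b window held 1 TTNNGNAA, 83 bases before the start. The Il1r2 window held none of the 4 motifs. A match is a run of letters only, and no binding was measured here.

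The family divided among cell classes in the same way in both libraries: Il1b, Il1rn and Il1r2 in neutrophils and, for Il1b, in monocytes and macrophages, Il33 and most Il1r1 in fibroblasts and related stromal cells, Il1rl1 in mast cells and group 2 innate lymphoid cells, and Il18r1 in T cells. Neutrophils, monocytes and macrophages together held nearly all Il1b. Neutrophils held 37.7% of Il1b UMIs in retained JVL-14 cells and 42.9% in sham cells, monocytes 31.7% in JVL-14 and 23.4% in sham, and macrophages 26.7% in JVL-14 and 26.8% in sham. Fibroblasts held 62.8% of Il33 UMIs in JVL-14 and 68.9% in sham, and clusters 19 and 10 held most of the remainder. Neutrophils held 90.5% of Il1r2 UMIs in JVL-14 and 85.8% in sham. Ligand and receptor of the Il33 pathway lay mainly in different classes. Il33 was at or under 22 CPM in mast cells and group 2 innate lymphoid cells of either library, and fibroblasts had 0 UMIs of Il1rl1 in JVL-14 and 1.65 CPM in sham (15 UMIs). Of these 15 UMIs, 6 came from the 60 sham cells of fibroblast cluster 31, where Il1rl1 was at 16.6 CPM. Another 9 came from 237 sham cells of fibroblast cluster 5 that were named arachnoid barrier at a Leiden resolution of 2, at 3.58 CPM.

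**Figure D1:**
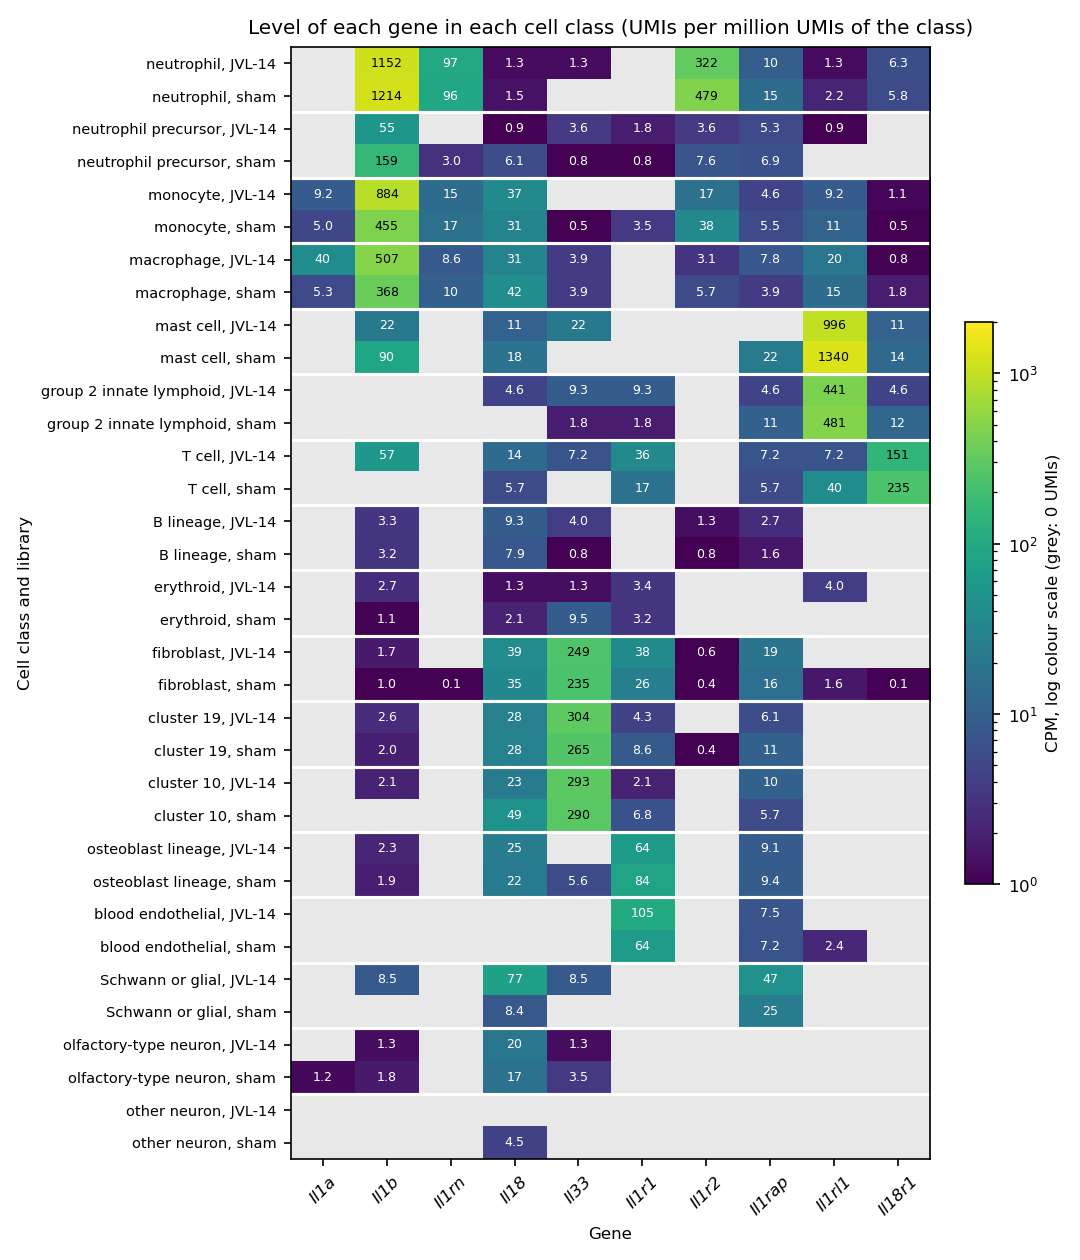
Level of the 10 genes (columns) in the 17 compared classes, with the JVL-14 library above the sham library in each class. The colour shows CPM on a log scale, each cell prints the CPM, and grey marks 0 UMIs. Il1b is brightest in neutrophils at 1152 CPM in JVL-14 and 1214 CPM in sham, Il33 in stromal classes and Il1rl1 in mast cells.

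A gene and class pair was counted as measured at a mean of at least 20 CPM over both libraries and at least 20 UMIs in all, and as higher or lower at a 1.5-fold difference. Of the 170 pairs of a gene and a compared class, 25 were measured, in 13 classes. In JVL-14, 4 of the 25 were higher (16%) and 5 were lower (20%), and 16 lay within 1.5-fold. Over all genes measured in those 13 classes, 9.84% of gene and class pairs were higher in JVL-14 and 11.2% lower. The 4 higher pairs were Il1a in macrophages, Il1b in monocytes, Il18 in Schwann or glial cells and Il1r1 in blood endothelial cells, and for 3 of them, all but Il1r1, the counting interval excluded 1. The 5 lower pairs were Il1b in neutrophil precursors and in mast cells, Il1r2 in monocytes, Il18 in cluster 10 and Il18r1 in T cells, and the interval excluded 1 for 3 of them, not for Il1b in mast cells or Il18r1 in T cells. With the 5 cells holding most UMIs of the gene left out of each library, 1 pair counted as higher in JVL-14.

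**Figure D2:**
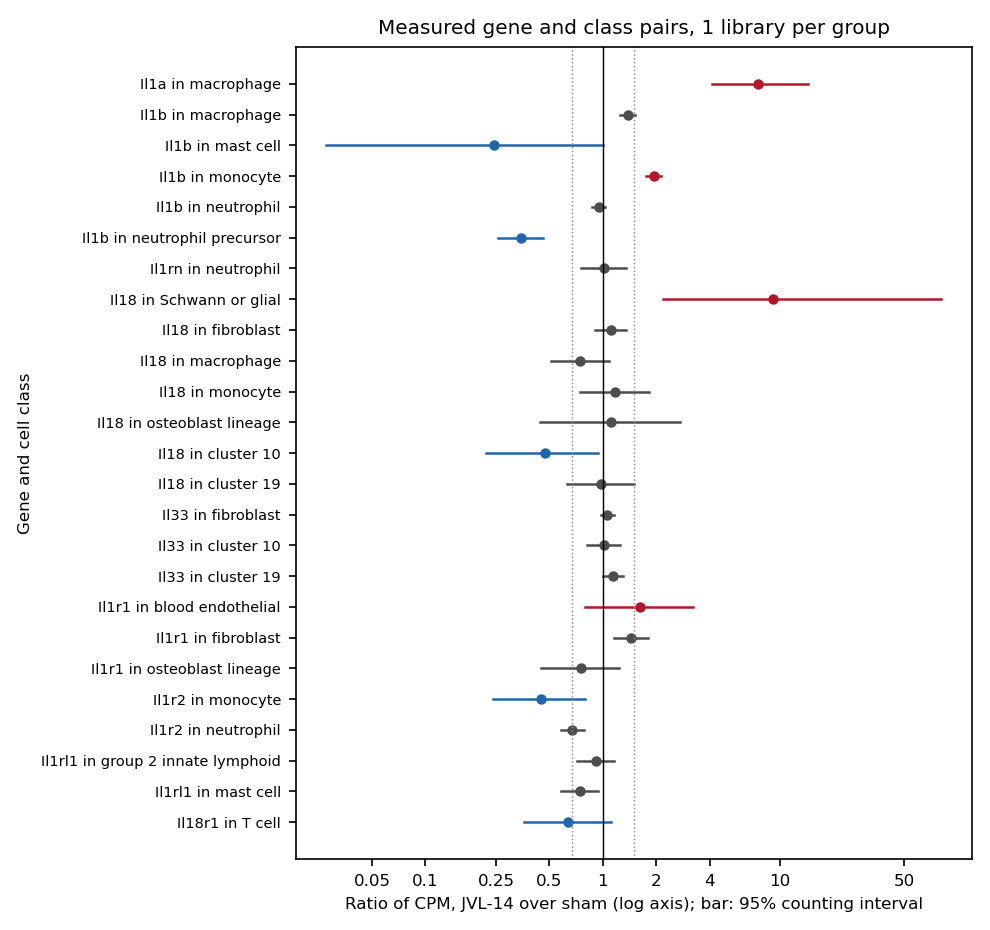
Ratio of CPM, JVL-14 over sham, on a log axis for the 25 measured pairs, with 95% counting intervals. Red points are at least 1.5-fold higher in JVL-14, blue points at least 1.5-fold lower, and dotted lines mark 1.5-fold. Il1a in macrophages (7.48) and Il18 in Schwann or glial cells (9.13) lie farthest to the right, and Il1b in mast cells (0.243) farthest to the left.

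Il1b in neutrophils was at 1152 CPM in JVL-14 (915 UMIs in 112 cells, interval 1079 to 1230) and at 1214 CPM in sham (1660 UMIs in 181 cells, 1157 to 1274). The intervals overlapped, with a ratio of 0.949 (0.875 to 1.03). A UMI of Il1b was seen in 49.1% of JVL-14 and 52.5% of sham neutrophils, against 1.03% of JVL-14 and 0.275% of sham B lineage cells, which should lack the gene. Median depths were 5454 and 7058 UMIs per cell in JVL-14 and sham neutrophils, and 2963 and 2727 in JVL-14 and sham B lineage cells. With each cell thinned to 1000 UMIs the shares were 41.5% of JVL-14 and 38.3% of sham neutrophils.

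Il1b rose in the same order in both libraries, from cells named neutrophil precursors through cluster 26 to cluster 28. It was concentrated in cluster 28, the more mature neutrophil cluster. In cluster 28, led by Retnlg, the level was 3850 CPM in JVL-14 and 3772 CPM in sham, a ratio of 1.02 (0.937 to 1.11). In cluster 26, led by the granule genes Camp, Ngp and Ltf, it was 93.0 CPM in JVL-14 and 191 CPM in sham, a ratio of 0.486 (0.351 to 0.662). Neutrophil precursors had 55.1 CPM in JVL-14 (62 UMIs) and 159 CPM in sham (209 UMIs), a ratio of 0.346 (0.257 to 0.462), in a class where 17.3% of measured genes were lower in JVL-14. In JVL-14, 7 of 88 precursors had a UMI of Il1b, and in sham 25 of 67.

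The precursor classes of the libraries differed in more than Il1b, and their name is unsure in sham. Over the fixed markers this cluster (30) scored highest as monocyte, while its leading genes were Prtn3, Ctsg and Elane. The 7 neutrophil precursor markers summed to 11396 CPM in JVL-14 and 3964 CPM in sham, and the 7 monocyte markers in the same cells to 3846 CPM in JVL-14 and 7113 CPM in sham. In sham the monocyte markers were thus above the precursor markers, and above their 4642 CPM in sham monocytes. Macrophage markers in the precursors summed to 221 CPM in JVL-14 and 1714 CPM in sham. Their part in the lower Il1b was not tested. Median depth was 7638 UMIs in JVL-14 precursors and 18543 UMIs in sham precursors, and thinned to 1000 UMIs 4.11% of JVL-14 and 15.9% of sham precursors had Il1b. Among cells with at most 5% mitochondrial UMIs the log2 ratio was -0.50, inside the 1.5-fold limit, against -1.52 with the limit of 10%.

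**Figure D3:**
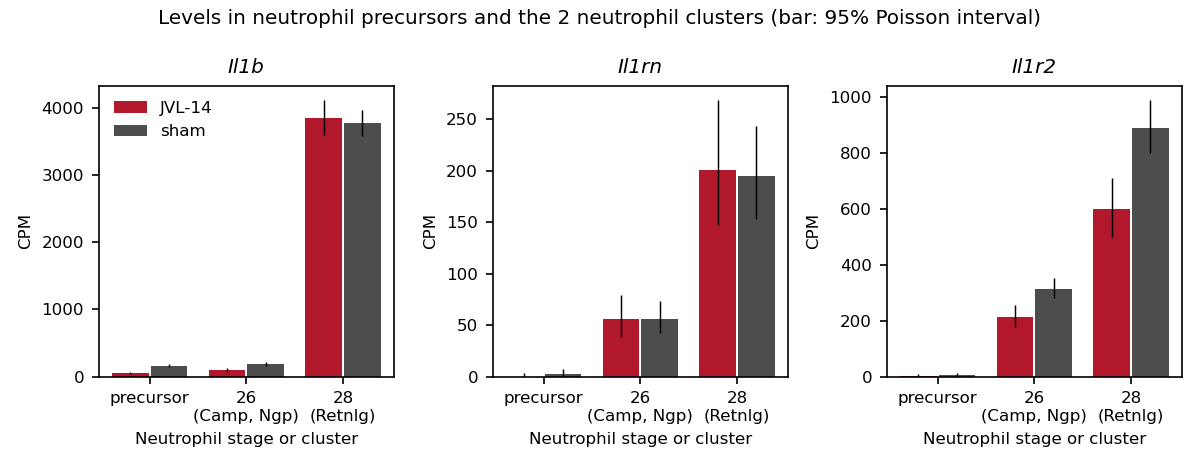
Levels in CPM of Il1b, Il1rn and Il1r2 in neutrophil precursors, cluster 26 and cluster 28, with JVL-14 left of sham and 95% Poisson intervals. All 3 genes are highest in cluster 28 of both libraries, and the JVL-14 bars of Il1r2 are the lower ones in clusters 26 and 28.

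Cells labelled monocytes, the class led by Cd209a, carried more Il1b in JVL-14. The level was 884 CPM in JVL-14 (769 UMIs in 98 cells, 822 to 948) and 455 CPM in sham (905 UMIs in 223 cells, 426 to 486), a ratio of 1.94 (1.76 to 2.14), where 5.54% of measured genes were higher in JVL-14. The intervals were well apart. Il1b was seen in 50% of JVL-14 monocytes (39.7 to 60.3) and 38.1% of sham monocytes (31.7 to 44.8), at median depths of 8599 UMIs in JVL-14 and 8496 UMIs in sham. After thinning the shares were 31.2% in JVL-14 and 20.6% in sham. Cells with 20 or more Il1b UMIs made up 17.3% of JVL-14 monocytes and 4.48% of sham monocytes, and the highest cell had 83 UMIs in JVL-14 and 84 in sham.

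The monocyte class could be drawn more narrowly, and its size of difference moved with that. At a Leiden resolution of 2 it separated into a monocyte cluster and a larger dendritic cluster. The monocyte cluster had 577 CPM in JVL-14 (145 UMIs in 32 cells) and 398 CPM in sham (268 UMIs in 84 cells), a ratio of 1.45 (1.18 to 1.78). The dendritic cluster had 986 CPM in JVL-14 (599 UMIs in 65 cells) and 488 CPM in sham (653 UMIs in 140 cells), a ratio of 2.02 (1.81 to 2.26). Il1b therefore passed 1.5-fold in the dendritic cluster and fell short of it in the narrower monocyte cluster. It also fell short among cells with at most 5% mitochondrial UMIs (log2 ratio 0.42) and with the family kept among the clustering genes (0.48). The 10 neutrophil markers summed to 690 CPM in JVL-14 monocytes and 160 CPM in sham monocytes. The part of these counts in the Il1b difference was not tested.

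Macrophages had Il1b at 507 CPM in JVL-14 (648 UMIs in 343 cells, 469 to 548) and 368 CPM in sham (1035 UMIs in 717 cells, 346 to 391). The ratio of 1.38 (1.25 to 1.52) was beyond counting error and within 1.5-fold. More cells carried the transcript in JVL-14, with 26.2% of JVL-14 and 16.5% of sham macrophages positive, or 14.6% of JVL-14 and 9.55% of sham after thinning. Cells with 20 or more UMIs were about as frequent in both, at 2.62% in JVL-14 and 2.37% in sham. The median positive cell held 2 UMIs in JVL-14 and 3 UMIs in sham.

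Among macrophage clusters the level of Il1b was highest in the interferon-type cluster 32 and next highest in cluster 1, in both libraries. Cluster 1, led by C1qa, Mrc1 and Cx3cr1, had 573 CPM in JVL-14 and 443 CPM in sham, a ratio of 1.29 (1.16 to 1.44). Cluster 32, led by Cxcl9 and other interferon-induced genes, had 700 CPM in JVL-14 and 621 CPM in sham, a ratio of 1.13 (0.807 to 1.56). Cluster 12, led by Cd209f and Folr2, genes of border-resident macrophages, had 133 CPM in JVL-14 and 52.0 CPM in sham, a ratio of 2.56 (1.5 to 4.37) resting on 29 and 32 UMIs. In that cluster 9.74% of JVL-14 and 3.23% of sham cells had a UMI, at nearly equal median depths of 1284 UMIs in JVL-14 and 1282 UMIs in sham. Weighting cells equally gave a log2 ratio of 1.03 over all macrophages, against 0.46 from summed UMIs.

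**Figure D4:**
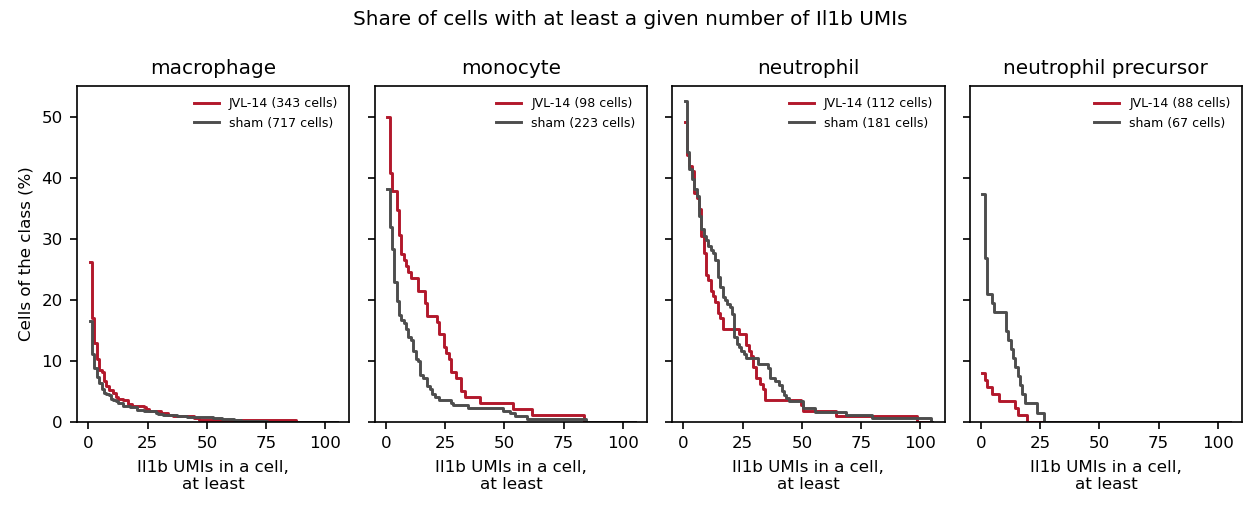
Share of cells (vertical axis, percent of the class) with at least the number of Il1b UMIs on the horizontal axis, for JVL-14 (red) and sham (grey). In monocytes the JVL-14 curve lies above the sham curve from 1 UMI, with 50% of JVL-14 and 38.1% of sham cells positive, up to its highest cell at 83 UMIs, and the highest sham cell is at 84. In neutrophils the curves cross repeatedly.

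Outside these classes Il1b was scarce. In mast cells the pair met the measurement limits through 2 UMIs in JVL-14 (21.9 CPM) and 20 UMIs in sham (89.9 CPM), and the sham UMIs lay in 3 cells. Of all genes measured in mast cells 20.4% were lower in JVL-14. Without the 5 highest cells of each library the log2 ratio had the opposite sign, 1.46 against -1.75. In T cells 8 UMIs in 3 JVL-14 cells and none in 42 sham cells were seen. Macrophage markers summed to 10329 CPM in JVL-14 T cells and 1920 CPM in sham T cells, and their part was not tested.

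Il1a was rare, with 60 UMIs in the whole JVL-14 library and 27 in the sham library, and lay mostly in macrophages and monocytes. In macrophages it was at 39.9 CPM in JVL-14 (51 UMIs, 29.7 to 52.5) and 5.33 CPM in sham (15 UMIs, 2.98 to 8.79), a ratio of 7.48 (4.14 to 14.3), in a class where 3.9% of measured genes were higher in JVL-14 and 4.9% lower. The UMIs came from 11 of 343 JVL-14 cells and 10 of 717 sham cells. In JVL-14, 84.3% of them lay in 5 cells and the highest cell had 16, while the highest sham cell had 3. Without the 5 highest cells of each library the log2 ratio was 1.78, against 2.87 with them. Cluster 1 held 50 of the JVL-14 UMIs and all 15 of the sham UMIs.

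Among macrophages of either library Il1a was more frequent where Il1b was also seen, from 5 cells with both genes in each library. Il1a was found in 5.56% of Il1b-positive and 2.37% of Il1b-negative JVL-14 macrophages, and in 4.24% of Il1b-positive and 0.835% of Il1b-negative sham macrophages. Il1b-positive macrophages had a median of 5630 UMIs in JVL-14 and 6445 UMIs in sham, above the class medians of 2839 and 2353, and the part of depth was not tested. No neutrophil of either library had a UMI of Il1a, which allows a level of up to 3.78 CPM in JVL-14 and 2.19 CPM in sham (3 UMIs over the class).

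Il33 was a stromal transcript at nearly the same level in both libraries. Fibroblasts had 249 CPM in JVL-14 (874 UMIs in 420 cells, 233 to 267) and 235 CPM in sham (2139 UMIs in 1036 cells, 225 to 245), a ratio of 1.06 (0.982 to 1.15), with 55.7% of JVL-14 and 56.3% of sham cells positive. Cluster 19 had 304 CPM in JVL-14 and 265 CPM in sham (ratio 1.14, 1.0 to 1.30). Cluster 10 had 293 CPM in JVL-14 and 290 CPM in sham (ratio 1.01, 0.816 to 1.25). Osteoblast lineage cells, also stromal, had 0 UMIs in JVL-14 and 5.6 CPM in sham. In B lineage cells 1.03% of JVL-14 and 0.275% of sham cells had a UMI.

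The near-equal fibroblast total covered clusters that differed in opposite directions. Cluster 0, led by Ccl19, Fbln7 and Mfap5, had Il33 at 297 CPM in JVL-14 and 339 CPM in sham (ratio 0.876, 0.791 to 0.970). Cluster 5, led by Ccn3, Penk and the gap-junction genes Gjb6 and Gjb2, had 184 CPM in JVL-14 and 128 CPM in sham (1.43, 1.22 to 1.68). Cluster 22, led by Ptgds, Apod and Slc6a13, had 482 CPM in JVL-14 and 318 CPM in sham (1.52, 1.09 to 2.11). Cluster 20, led by the interferon-induced genes Ifit3, Ifit1 and Isg15, had 50.6 CPM in JVL-14 and 124 CPM in sham (0.408, 0.206 to 0.733), from 27 JVL-14 and 127 sham cells. Cluster 31, led by Ccl11, Clec3b and Pi16, had the most Il33 in sham at 715 CPM, and with 2 JVL-14 cells it gave no comparison. At a Leiden resolution of 2 most of cluster 5 (67 JVL-14 and 237 sham cells) was named arachnoid barrier, and 50 JVL-14 and 121 sham cells were named fibroblast. In the arachnoid barrier cells Il33 was at 122 CPM in JVL-14 and 84.8 CPM in sham (1.44, 1.10 to 1.86).

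Il18 met the measurement limits in 7 of the 17 classes, against 5 classes for Il1b, 3 for Il33 and 1 for Il1a, and was at or under 76.6 CPM in each of the 7 in either library. Fibroblasts had 39.1 CPM in JVL-14 and 35.2 CPM in sham (ratio 1.11, 0.902 to 1.36), and held about the same share of its UMIs, 40.2% in JVL-14 and 39.6% in sham. Macrophages had 31.3 CPM in JVL-14 and 41.9 CPM in sham (0.746, 0.508 to 1.08), and monocytes 36.8 CPM in JVL-14 and 31.2 CPM in sham (1.18, 0.745 to 1.83). None of these 3 intervals excluded 1. A UMI was seen in 24.5% of JVL-14 and 23.5% of sham fibroblasts, against 0.935% of JVL-14 and 2.67% of sham erythroid cells, whose medians were 13150 UMIs in JVL-14 and 13059 UMIs in sham. Pinealocytes, caught in the sham library alone, had 145 CPM, above every compared class of the sham library.

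Neutrophils, the class with the highest level of Il1b, had almost no Il18, at 1.3 CPM in JVL-14 and 1.5 CPM in sham. In cluster 10 Il18 was at 23.1 CPM in JVL-14 (11 UMIs) and 48.6 CPM in sham (43 UMIs), a ratio of 0.474 (0.221 to 0.935), where 11.4% of measured genes were lower. In Schwann or glial cells it was at 76.6 CPM in JVL-14 (18 UMIs in 7 of 75 cells) and 8.39 CPM in sham (2 UMIs in 2 of 88 cells), a ratio of 9.13 (2.19 to 81.1). There 21.2% of measured genes were higher in JVL-14, and 88.9% of the JVL-14 UMIs lay in 5 cells. All Il18 UMIs of both libraries came from cluster 24, which held 39 of the JVL-14 and 64 of the sham cells of the class. Markers of other cell types also differed in these cells. The 7 arachnoid barrier markers summed to 587 CPM in JVL-14 and 33.6 CPM in sham, with 3 of the 7 at 0 in each library, the 9 fibroblast markers to 1443 CPM in JVL-14 (2 at 0) and 709 CPM in sham (1 at 0), and the 9 macrophage markers to 7209 CPM in JVL-14 and 24234 CPM in sham (3 at 0 in each). These sums rested largely on single genes. The highest macrophage marker alone was at 7175 CPM in JVL-14 and 24179 CPM in sham. The highest arachnoid barrier marker was at 549 CPM in JVL-14 and 21 CPM in sham, and the highest fibroblast marker at 723 CPM in JVL-14 and 394 CPM in sham. The part of these markers in the Il18 difference was not tested.

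Of the inhibitors in neutrophils, the antagonist Il1rn was level between the libraries and the decoy Il1r2 was not. Il1rn in neutrophils was at 97.0 CPM in JVL-14 (77 UMIs, 76.5 to 121) and 95.8 CPM in sham (131 UMIs, 80.1 to 114), a ratio of 1.01 (0.754 to 1.35). It was at 201 CPM in JVL-14 and 195 CPM in sham in cluster 28, and at 56.1 CPM in JVL-14 and 56.3 CPM in sham in cluster 26. Neutrophils held 76.2% of its UMIs in JVL-14 and 66.2% in sham, and monocytes and macrophages held nearly all others. At a Leiden resolution of 2 the dendritic cluster had 1 UMI of Il1rn in JVL-14 and 32 in sham. The monocyte cluster had 6 in JVL-14 and 1 in sham, and both clusters were under the measurement limits. No B lineage cell had a UMI of Il1rn.

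Il1r2 in neutrophils was at 322 CPM in JVL-14 (256 UMIs, 284 to 364) and 479 CPM in sham (655 UMIs, 443 to 517). The intervals did not overlap, and the ratio of 0.673 (0.580 to 0.779) lay just within 1.5-fold. Both neutrophil clusters gave nearly the same ratio. In cluster 28 the level was 598 CPM in JVL-14 and 891 CPM in sham (0.672, 0.546 to 0.822), and in cluster 26 it was 214 CPM in JVL-14 and 314 CPM in sham (0.681, 0.547 to 0.842). A UMI was seen in 79.5% of JVL-14 and 86.7% of sham neutrophils, or in 34.9% of JVL-14 and 43.3% of sham after thinning, against 0.517% of JVL-14 and 0.275% of sham B lineage cells. The log2 ratio of -0.57 became -0.23 in cells with at least 500 genes and stayed below 0 under each of the 14 alternatives run.

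In monocytes Il1r2 was also lower in JVL-14, at 17.2 CPM (15 UMIs) against 38.2 CPM in sham (76 UMIs), a ratio of 0.451 (0.241 to 0.791), where 7.26% of measured genes were lower. The same cells had the higher Il1b. Thinned to 1000 UMIs the log2 ratio had the opposite sign, 0.74 against -1.11, from 4 JVL-14 and 6 sham positive cells, and it was -0.29 with at least 500 genes per cell or at most 5% mitochondrial UMIs. Within the class Il1r2 was found in 18.4% of Il1b-positive and 4.08% of Il1b-negative JVL-14 monocytes, and in 25.9% of Il1b-positive and 14.5% of Il1b-negative sham monocytes.

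The signalling receptor Il1r1 was found mostly in stroma and vessels, and little or none was found in the main carriers of Il1b. In macrophages 0 UMIs were found in 343 JVL-14 and 717 sham cells, which allows up to 2.35 CPM in JVL-14 and 1.07 CPM in sham, and neutrophils also had 0 UMIs in both libraries. Monocytes had 0 UMIs in JVL-14 and 7 UMIs in sham, in 6 of 223 cells (3.52 CPM). T cells had 35.9 CPM in JVL-14 (5 UMIs in 4 of 28 cells) and 17.2 CPM in sham (3 UMIs in 2 of 42 cells). Fibroblasts had 37.7 CPM in JVL-14 (132 UMIs, 31.5 to 44.7) and 26 CPM in sham (237 UMIs, 22.8 to 29.5), a ratio of 1.45 (1.16 to 1.80). Positive cells were equally frequent, at 17.6% in JVL-14 and 17.2% in sham, and the highest cell had 11 UMIs in JVL-14 and 6 in sham. No B lineage cell had a UMI. Averaged within clusters the log2 ratio was 0.13, and it had the opposite sign with the libraries clustered separately (-0.11) and with at least 500 genes per cell (-0.09), against 0.54 for the summed class. Osteoblast lineage cells had 63.5 CPM in JVL-14 and 84.5 CPM in sham (0.752, 0.451 to 1.23). Blood endothelial cells had 105 CPM in JVL-14 (14 UMIs) and 64.3 CPM in sham (27 UMIs), a ratio of 1.63 (0.792 to 3.23) where 15.9% of measured genes were higher. The capillary-type endothelial cluster 23, led by Fabp4 and Gpihbp1, had 3 JVL-14 and 71 sham cells, and cluster 11 alone gave 1.70 (0.795 to 3.54).

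Fibroblast clusters split more sharply by Il1r1 than by Il33. In cluster 22 Il1r1 was at 168 CPM in JVL-14 and 82.8 CPM in sham (ratio 2.03, 1.09 to 3.75), and in cluster 0 at 52.7 CPM in JVL-14 and 41.9 CPM in sham (1.26, 0.962 to 1.63). Cluster 31 had 66.5 CPM in sham. Cluster 5 had 4.94 CPM in JVL-14 and 5.99 CPM in sham, and clusters 19 and 10 were below 10 CPM in both libraries although all 3 carried Il33 above 100 CPM. Among Il33-positive fibroblasts 20.1% of JVL-14 and 22.1% of sham cells had Il1r1, against 14.5% of JVL-14 and 10.8% of sham Il33-negative fibroblasts. In cluster 19 the libraries had opposite orders, with Il1r1 in 3.70% of Il33-positive and 1.39% of Il33-negative JVL-14 cells (3 and 1 cells), and in 4.30% of Il33-positive and 8.18% of Il33-negative sham cells.

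**Figure D5:**
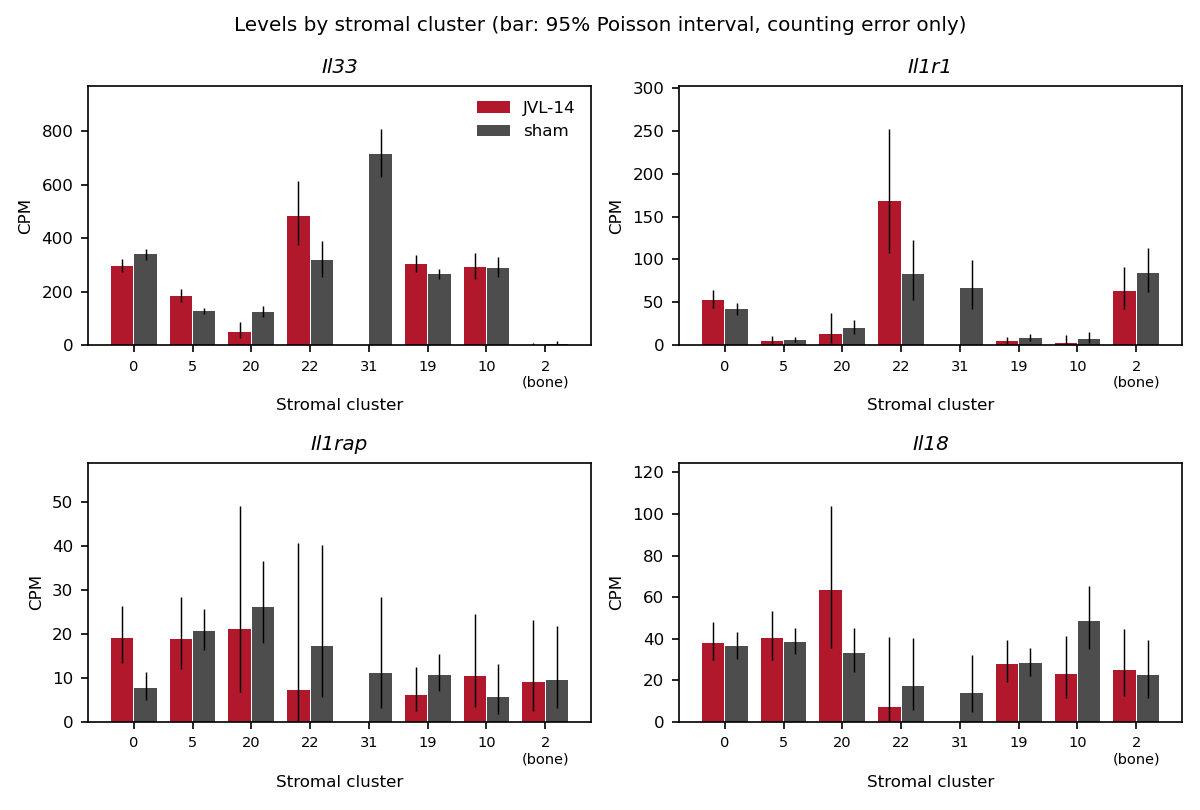
Levels in CPM of Il33, Il1r1, Il1rap and Il18 in the fibroblast clusters 0, 5, 20, 22 and 31, clusters 19 and 10 and osteoblast lineage cells (cluster 2), with JVL-14 left of sham and 95% Poisson intervals. No JVL-14 bar is drawn for cluster 31, which has 2 JVL-14 cells. Il33 is above 50 CPM in every cluster drawn except the osteoblast lineage, which has 0 UMIs in JVL-14 and 5.63 CPM in sham. Il1r1 is at 168 CPM in JVL-14 and 82.8 CPM in sham in cluster 22, beside 63.5 CPM in JVL-14 and 84.5 CPM in sham osteoblast lineage cells, and is low in clusters 5, 19 and 10.

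Il1rap, the chain that Il1r1 and Il1rl1 share, reached the measurement limits in 0 of the 17 classes. It was at 18.6 CPM in JVL-14 and 16.1 CPM in sham fibroblasts, which held 50.4% of its UMIs in JVL-14 and 55.9% in sham. By level it was highest in Schwann or glial cells, at 46.8 CPM in JVL-14 (11 UMIs) and 25.2 CPM in sham (6 UMIs). In fibroblast cluster 0 it was at 19 CPM in JVL-14 (36 UMIs) and 7.73 CPM in sham (26 UMIs), a ratio of 2.45 (1.44 to 4.23), and in cluster 5 at 18.9 CPM in JVL-14 and 20.6 CPM in sham. Of Il1r1-positive fibroblasts 12.2% in JVL-14 and 10.1% in sham had a UMI of Il1rap. In the classes with most Il1rl1 it rested on few UMIs. Group 2 innate lymphoid cells had 4.64 CPM in JVL-14 (1 UMI in 50 cells) and 10.6 CPM in sham (6 UMIs in 140 cells), and mast cells had 0 UMIs in 26 JVL-14 cells and 22.5 CPM in sham (5 UMIs in 72 cells, 7.3 to 52.5).

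Il1rl1, the receptor for Il33, lay within 1.5-fold between the libraries in both of its main classes. Group 2 innate lymphoid cells had 441 CPM in JVL-14 (95 UMIs in 50 cells, 357 to 539) and 481 CPM in sham (273 UMIs in 140 cells, 426 to 542), a ratio of 0.917 (0.718 to 1.16). Mast cells had 996 CPM in JVL-14 (91 UMIs in 26 cells, 802 to 1223) and 1340 CPM in sham (298 UMIs in 72 cells, 1192 to 1501), a ratio of 0.743 (0.581 to 0.943). Positive cells made up 86.0% of JVL-14 and 75.0% of sham group 2 innate lymphoid cells, and 80.8% of JVL-14 and 87.5% of sham mast cells, against none of the B lineage cells. Macrophages carried a low level, 19.6 CPM in JVL-14 and 14.9 CPM in sham, nearly all of it in cluster 1.

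Il18r1 was counted in few cells. T cells had 151 CPM in JVL-14 (21 UMIs in 12 of 28 cells, 93.2 to 230) and 235 CPM in sham (41 UMIs in 16 of 42 cells, 169 to 319), a ratio of 0.641 (0.360 to 1.11) where 17.3% of measured genes were lower. As the mean over cells the log2 ratio was -0.05. Mast cells had 10.9 CPM in JVL-14 and 13.5 CPM in sham, neutrophils 6.3 CPM in JVL-14 and 5.85 CPM in sham, and group 2 innate lymphoid cells 4.64 CPM in JVL-14 and 12.3 CPM in sham, each from 8 or fewer UMIs per library. T cells held 70% of Il18r1 UMIs in JVL-14 and 62.1% in sham, and neutrophils 16.7% in JVL-14 and 12.1% in sham.

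Across the 17 classes and both libraries (34 values, which share the cells' clustering and the libraries' depth), the genes whose log2(CPM + 10) followed each member most closely were listed by Pearson's r as a description. Il1b was followed by Ccl6, Nfam1 (both r = 0.974) and Igsf6 (0.967). Il1r2 was followed by Cd177 (0.980), Mmp8 (0.978) and Padi4 (0.976), and Il1rn by Clec4e (0.962), Fpr2 (0.956) and Clec4d (0.954). Among the members themselves Il1rn and Il1r2 had r = 0.978, and Il1b had 0.829 with Il1rn and 0.759 with Il1r2. Il33 was followed by Wfdc2 (0.972), Cpz (0.968) and Tnmd (0.965), and Il1rl1 by Cd200r1 (0.881), Inpp4b (0.880) and the mast cell receptor Kit (0.879). For Il1r1 the closest were 2900026A02Rik (0.873), Esm1 (0.823) and Tnks1bp1 (0.811), for Il18 Rassf2 (0.757) and for Il1rap Acot1 (0.750).

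Other genes of the pathway were read from 6 fixed lists. Of 30 genes known to be induced by interleukin-1 and NF-kB, 16 were measured in macrophages, of which 5 were higher in JVL-14 and 1 lower, beside 3.9% of all genes measured in the class higher and 4.9% lower. The median log2 ratio was 0.29 beside -0.00 over all genes of the class. Ccl3, a chemokine, was at 957 CPM in JVL-14 and 461 CPM in sham (ratio 2.08, 1.92 to 2.25). Tnf was at 133 CPM in JVL-14 and 60.4 CPM in sham (2.20, 1.77 to 2.74), Cxcl1 at 30.5 CPM in JVL-14 and 12.8 CPM in sham (2.38, 1.48 to 3.86), and the prostaglandin synthase Ptgs2 at 31.3 CPM in JVL-14 and 14.2 CPM in sham (2.20, 1.38 to 3.50). All JVL-14 UMIs of Cxcl1 lay in 5 cells, as did 65% of those of Ptgs2, against 24.3% for Ccl3 and 29.4% for Tnf. Of 25 genes known to respond to tissue handling and dissociation, all measured in macrophages, 6 were higher and 1 lower (median 0.24), beside the same shares of all genes. These included the heat shock genes Hspa1a, at 452 CPM in JVL-14 and 114 CPM in sham (3.96, 3.45 to 4.56), and Hspa1b, at 268 CPM in JVL-14 and 39.8 CPM in sham (6.72, 5.41 to 8.4). Their part in the higher Il1a, Il1b and induced genes was not tested.

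Monocytes had 16 of the induced genes measured, with 2 higher and 1 lower (median 0.19 beside -0.03 over all genes), where 5.54% of all measured genes were higher and 7.26% lower. The neutrophil chemoattractant Cxcl2 was lower there, at 233 CPM in JVL-14 and 463 CPM in sham (ratio 0.504, 0.430 to 0.587). Of its UMIs, 61.6% in JVL-14 and 69.8% in sham lay in 5 cells, and without those cells the ratio was 0.659. Lcn2, also a granule gene of neutrophils, was higher, at 31 CPM in JVL-14 and 10.6 CPM in sham (2.94, 1.60 to 5.47). All JVL-14 UMIs of Lcn2 lay in 5 cells, and Ptgs2, the other gene counted as higher, had a ratio of 1.53 with its 5 highest cells in each library and 0.643 without them. Of the handling genes 24 were measured, 4 higher and 0 lower (median 0.28), beside those shares, with Hspa1a at 276 CPM in JVL-14 and 54.3 CPM in sham (5.08, 4.03 to 6.43) and Hspa1b at 248 CPM in JVL-14 and 39.7 CPM in sham (6.25, 4.81 to 8.19). Genes of the inflammasome and of cytokine release stayed within 1.5-fold in all 11 measured cases in macrophages and all 11 in monocytes, and so did the receptor signalling genes measured there (10 in macrophages and 11 in monocytes). Group 2 innate lymphoid cells had 8 receptor signalling genes measured, 0 higher and 4 lower (median -0.50), where 11.2% of measured genes were higher and 18.1% lower. Mast cells had 4 measured, 0 higher and 3 lower (median -0.63), where 13.2% of measured genes were higher and 20.4% lower. In JVL-14, 5 cells held at least 71.4% of the UMIs of each of these lower genes. Mast cells had 12 induced genes measured, 0 higher and 5 lower (median -0.11).

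Fibroblasts, with the most Il1r1 UMIs, showed the opposite balance of induced genes. Of 11 measured, 1 was higher in JVL-14 and 4 lower, with a median of -0.26 beside 0.03 over all genes, where 2.09% of measured genes were higher and 3.05% lower. Ccl2 was at 7.71 CPM in JVL-14 and 39.9 CPM in sham (ratio 0.193, 0.125 to 0.286), Cxcl1 at 38.5 CPM in JVL-14 and 93.0 CPM in sham (0.414, 0.343 to 0.497), Nfkbia, the NF-kB inhibitor, at 411 CPM in JVL-14 and 699 CPM in sham (0.589, 0.556 to 0.623), and Nfkbiz at 43.1 CPM in JVL-14 and 69.1 CPM in sham (0.624, 0.519 to 0.746). Without doublet removal the ratio of Ccl2 was 0.525. The handling genes had a similar balance, with 25 measured, 1 higher and 5 lower (median -0.23), among them Atf3 at 165 CPM in JVL-14 and 269 CPM in sham (0.613, 0.559 to 0.671) and Hspa1a at 62.5 CPM in JVL-14 and 113 CPM in sham (0.553, 0.476 to 0.641). Their part was not tested.

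In neutrophils 13 induced genes were measured, 1 higher and 1 lower, beside 12.3% of all measured genes higher and 5.25% lower. Of the handling genes 20 were measured in neutrophils, 5 higher and 1 lower (median 0.27 beside 0.11 over all genes), and their part was not tested. A further family ligand was detected there: Il36g, which acts through Il1rl2 and Il1rap, was at 115 CPM in JVL-14 (91 UMIs) and 54.9 CPM in sham (75 UMIs), a ratio of 2.09 (1.52 to 2.87). Nfkbia was at 662 CPM in JVL-14 and 383 CPM in sham (1.73, 1.53 to 1.95), and the adaptor Myd88 at 45.3 CPM in JVL-14 and 27.1 CPM in sham (1.68, 1.03 to 2.73). The chemokine Cxcl3 was at 12.6 CPM in JVL-14 (10 UMIs) and 39.5 CPM in sham (54 UMIs), a ratio of 0.319 (0.145 to 0.632). Of its UMIs, 80% in JVL-14 and 87% in sham lay in 5 cells, and without those cells the ratio was 0.498.

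Group 2 innate lymphoid cells, the carriers of Il1rl1, had 11 of 16 genes of the type 2 and interferon-gamma list measured, 1 higher and 2 lower (median 0.02 beside -0.01), where 11.2% of measured genes were higher and 18.1% lower. Il13 was at 121 CPM in JVL-14 and 70.5 CPM in sham (ratio 1.71, 1.0 to 2.88), Il5 at 13.9 CPM in JVL-14 and 54.7 CPM in sham (0.255, 0.0499 to 0.817), and Csf2 at 228 CPM in JVL-14 and 499 CPM in sham (0.456, 0.330 to 0.619). In JVL-14, 5 cells held 92.3% of Il13 UMIs, 91.8% of Csf2 UMIs and all Il5 UMIs, and without the 5 highest cells of each library the ratio of Il13 was 0.32. Of the handling genes 21 were measured in these cells, 6 higher and 1 lower (median 0.47), beside the same shares of all genes. Their part was not tested. In mast cells 4 genes of the list were measured, 1 higher and 2 lower, where 13.2% of measured genes were higher and 20.4% lower. The type 2 cytokine Il4 was at 482 CPM in JVL-14 and 270 CPM in sham (1.79, 1.18 to 2.68). Hdc, the histamine-forming enzyme, was at 3230 CPM in JVL-14 and 5194 CPM in sham (0.622, 0.545 to 0.707). Calca was at 10.9 CPM in JVL-14 (1 UMI) and 89.9 CPM in sham (20 UMIs), a ratio of 0.122 (0.00294 to 0.761). All Calca UMIs lay in 5 or fewer cells of each library. Of the handling genes 21 were measured in mast cells, 3 higher and 1 lower (median 0.21), and their part was not tested. In T cells 5 genes of the list were measured, 4 higher and 1 lower, where 16.9% of measured genes were higher and 17.3% lower. The growth factor Areg was at 165 CPM in JVL-14 (23 UMIs) and 779 CPM in sham (136 UMIs), a ratio of 0.212 (0.13 to 0.331). All Areg UMIs lay in 5 or fewer cells of each library, and without doublet removal its ratio was 1.49, the opposite direction. Ifng was at 165 CPM in JVL-14 and 68.8 CPM in sham (2.40, 1.15 to 5.29), from 23 UMIs in JVL-14, of which 82.6% lay in 5 cells, and 12 UMIs in sham. Of the handling genes 22 were measured in T cells, 8 higher and 0 lower (median 0.35 beside -0.03 over all genes). Macrophage markers summed to 10329 CPM in JVL-14 T cells and 1920 CPM in sham T cells. The part of the handling genes and of the macrophage markers in these counts was not tested.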

How the data were processed

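Droplet-based 3′ single-cell RNA sequencing was available for 1 JVL-14 and 1 sham library. The deposited values are raw UMI counts per gene and barcode, written by Cell Ranger 8.0.0 per the file headers; the submitters' processing notes name mm39 as the build used by the authors, and the sources used here name no annotation. No deposited barcode had under 500 UMIs. Genes were matched by symbol, and for 26 repeated symbols the gene with more UMIs was used.

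Cells with at least 200 genes and at most 10% mitochondrial UMIs were kept. Scrublet's own threshold marked under 0.5% of barcodes (0.230% in JVL-14 and 0.121% in sham), so the 5% with the highest doublet scores were removed instead (137 in JVL-14 and 279 in sham). Cells of both libraries were clustered together in scanpy 1.11.5 (2000 variable genes, 30 components, 15 neighbours, Leiden resolution 1) without the 10 genes and the pathway lists, except the handling list, and 32 of 35 clusters were named from marker lists. The naming limits were set after the clusters had been seen, and the members and all lists were chosen with earlier results of these data known.

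For each class, UMIs were added up within a library and divided by the class total. Levels have exact Poisson intervals, shares of cells exact Clopper-Pearson intervals and ratios exact conditional binomial intervals, all at 95% and for counting error only. A count under 3 was set to 3 for the 1.5-fold limit, and log2 ratios carry a pseudocount of 0.5. The ratios and intervals were tested on simulated data for macrophages, monocytes and fibroblasts. The simulated counts were independent Poisson sums, as the intervals assume, so the spread between cells was not tested. Named from the lists were up to 4 genes per list and class with the largest difference past 1.5-fold. Of the alternatives, 16 were planned, and 3 for the fibroblasts and a check of the named list genes were added after the data had been seen. Classes under 20 cells in either library were not compared.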

Additional observations from a re-analysis of the deposited data

Results flagged for a closer look

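In 2 genes the libraries differed in opposite directions between classes, each beyond counting error. Il1b was higher in JVL-14 monocytes (log2 ratio 0.96) and lower in JVL-14 cells of the class named neutrophil precursors (-1.52). That name is unsure in sham, where monocyte markers summed above precursor markers in this class. With at most 5% mitochondrial UMIs both differences fell inside 1.5-fold, at 0.42 in monocytes and -0.50 in precursors. At a Leiden resolution of 2 the monocyte class passed 1.5-fold in its dendritic cluster only. Il18 was higher in JVL-14 Schwann or glial cells (2.91, 18 UMIs in JVL-14 and 2 in sham) and lower in JVL-14 cells of cluster 10 (-1.03). The differences between the classes were not tested, since each group has 1 library.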

How the results depend on the processing

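No paired analysis was possible because each group has 1 library. Of 312 recomputed log2 ratios, 263 lay inside the counting interval of the reported value, 46 lay outside it, and 3 had the opposite sign in a pair counted as higher or lower. Those 3 were Il1r2 in monocytes in thinned cells (0.74) and Il1b in mast cells as the mean over cells (0.22) and without the 5 highest cells (1.46). A further 20 values, in 9 pairs within 1.5-fold, had the opposite sign too, among them 8 values of Il1b in neutrophils, Il33 in fibroblasts and Il1r1 in fibroblasts, all given below. The cause was not tested in any of these. All values below are log2 ratios, JVL-14 over sham, and counts of pairs.

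With at least 500 genes per cell, Il1b was at 0.28 in neutrophils, 0.66 in macrophages and 0.66 in monocytes, Il1r1 in fibroblasts at -0.09, and 7 pairs were higher and 3 lower. With at most 5% mitochondrial UMIs, Il1b was at 0.05 in neutrophils, 0.66 in macrophages and 0.42 in monocytes, Il33 in fibroblasts at -0.03, and 2 pairs were lower. Without doublet removal Il1b in neutrophils was at 0.14 and 3 pairs were lower. In thinned cells Il1b was at -0.23 in neutrophils, 0.91 in macrophages and 1.24 in monocytes, and 2 pairs were lower. At resolution 2 Il1b in monocytes was at 0.54 and Il33 in fibroblasts at -0.07, and at resolution 0.5 3 pairs were lower. With the family kept for clustering Il1b was at 0.62 in macrophages and 0.48 in monocytes, and 3 pairs were lower. With separate clustering Il1b in macrophages was at 0.29, Il1r1 in fibroblasts at -0.11, and 3 pairs were lower.

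Averaged within clusters Il1b was at -0.54 in neutrophils and 0.85 in macrophages, and Il1r1 in fibroblasts at 0.13. As the mean over cells Il1b in macrophages was at 1.03 and 3 pairs were lower. Without the 5 highest cells Il1b was at -0.26 in neutrophils and 0.29 in macrophages, and 1 pair was higher. TMM scaling put Il1b in neutrophils at -0.22 and moved the median of all genes by more than 0.1 in erythroid (-1.58), endothelial (-0.17), neutrophil (-0.15) and mast cells (-0.14). Leaving out fibroblast cluster 31 or 5 put Il33 at 0.21 and -0.13. With no minimum level 21 pairs were higher and 15 lower, and at 2-fold 2 were higher.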
